A study of Mus musculus with 19 samples.

Results

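Interferon response genes are the genes that cells switch on when interferons reach them, and 63 of the 6842 genes listed in 3 tables of sorted cells were taken as such by their gene symbols. The symbols covered signal transducers of the Stat family such as Stat2, the Irf factors, the guanylate-binding (Gbp) and immunity-related GTPases (Irgm, Igtp, Iigp1), the Ifi, Ifit, Ifitm, Oas and Isg families, and single genes such as Bst2, Xaf1, Zbp1 and AW112010. The table of astrocytes held 44 of them among 6376 genes, that of microglia 45 among 3067, and that of monocytes 59 among 3776. All tables listed 37 of them, 11 were in 2 tables and 15 in 1, of which 12 were in the monocyte table alone, 2 in the astrocyte table alone (Irf2bpl and Parp12) and 1 in the microglia table alone (Gbp5). Irf2bp2 and Irf2bpl matched by their letters, and their products are partners of an Irf factor and not an interferon-induced family. Ifi27l1 is an older symbol that the GENCODE M21 annotation gives as Ifi27.

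The samples came from female wild-type C57Bl/6 mice at postnatal day 85. All mice had experimental autoimmune encephalomyelitis (EAE), a model of multiple sclerosis induced by immunization with 25 µg of MOG35-55 peptide in Freund's complete adjuvant, and all had received a lentivirus in the brain that expresses GFP from the Gfap promoter, a promoter active in astrocytes. The virus carried a hairpin against Xbp1 (shXbp1), which encodes a regulator of the unfolded protein response in the endoplasmic reticulum, or a scrambled hairpin (shScrmbl). There were 4 shXbp1 and 4 shScrmbl libraries of astrocytes, 3 shXbp1 and 4 shScrmbl libraries of microglia, and 2 shXbp1 and 2 shScrmbl libraries of monocytes, each a pool of sorted cells from the nervous system of a mouse. The virus is aimed at astrocytes, so in microglia and monocytes the comparison asks about cells beside the targeted ones. The antibodies of the sort, and whether astrocytes were selected for GFP, are not given in the sources used here.

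Type I interferons signal through Ifnar1 and Ifnar2 and the kinases Jak1 and Tyk2 to a complex that holds Stat2 and Irf9 and binds the interferon-stimulated response element (ISRE). Interferon gamma signals through Ifngr1 and Ifngr2, and its targets often carry the gamma-activated site (GAS). Several Irf factors are themselves targets of this pathway, so the response feeds on its own regulators. In EAE, T cells and other infiltrating cells bring interferon gamma into the nervous system, and glia and myeloid cells there respond to interferons of both types.

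What the rule did not use is the sequence in front of these genes. Promoter sequences (250 bases before to 50 after the start of transcription, from RefSeq on GRCm38.p6) were matched for 49 of the 63 genes, as 59 promoters. The ISRE letters GAAANNGAA, searched on both strands, stood in the promoters of 27 of the 49 genes (55.1%), against 9.76% of 27025 genes in the whole promoter table. The GAS letters TTCNNNGAA, which read alike on both strands, stood in those of 16 of the 49 (32.7%), against 9.55% of all genes. Both stood in those of 9 of the 49 (18.4%), against 1.24% of all genes. The genes were chosen by name from families known as interferon-induced, so these shares describe them, and a match of letters is not a site of binding. The 5 promoters below show the kinds of match among genes described further on, with the matched letters in capitals: Ifit3 with ISRE letters alone, Irf1 (the first of its 2 listed starts) with GAS letters alone, Ifitm3 and Bst2 with both overlapping in 1 stretch, and Lgals3bp, among the highest of these genes in microglia, with neither.
Ifit3 (chr19:34583279-34583578, plus strand): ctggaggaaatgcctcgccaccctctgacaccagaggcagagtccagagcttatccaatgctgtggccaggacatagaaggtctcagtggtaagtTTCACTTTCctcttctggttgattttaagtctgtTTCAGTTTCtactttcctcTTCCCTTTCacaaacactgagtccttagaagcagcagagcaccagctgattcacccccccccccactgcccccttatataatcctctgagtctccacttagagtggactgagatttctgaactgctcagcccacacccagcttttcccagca
Irf1 (chr11:53769764-53770063, plus strand): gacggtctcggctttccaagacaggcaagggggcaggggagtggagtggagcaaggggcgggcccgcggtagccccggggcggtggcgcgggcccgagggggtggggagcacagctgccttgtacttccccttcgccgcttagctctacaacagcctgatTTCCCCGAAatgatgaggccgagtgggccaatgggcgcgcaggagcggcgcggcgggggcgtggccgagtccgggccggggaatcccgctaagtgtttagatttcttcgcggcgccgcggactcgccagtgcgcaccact
Ifitm3 (chr7:141010695-141010994, minus strand): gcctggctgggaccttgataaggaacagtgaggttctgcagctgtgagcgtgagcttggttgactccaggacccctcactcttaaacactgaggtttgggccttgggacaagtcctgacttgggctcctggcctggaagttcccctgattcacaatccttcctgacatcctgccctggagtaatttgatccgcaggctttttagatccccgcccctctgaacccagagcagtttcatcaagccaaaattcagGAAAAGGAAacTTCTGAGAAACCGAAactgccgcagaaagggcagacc
Bst2 (chr8:71537423-71537722, minus strand): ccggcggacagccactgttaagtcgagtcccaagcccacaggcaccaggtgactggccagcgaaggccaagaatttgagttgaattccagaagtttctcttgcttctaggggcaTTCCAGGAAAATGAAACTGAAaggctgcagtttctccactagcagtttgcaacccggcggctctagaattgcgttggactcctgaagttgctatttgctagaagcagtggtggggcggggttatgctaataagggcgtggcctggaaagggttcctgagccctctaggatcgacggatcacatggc
Lgals3bp (chr11:118401910-118402209, minus strand): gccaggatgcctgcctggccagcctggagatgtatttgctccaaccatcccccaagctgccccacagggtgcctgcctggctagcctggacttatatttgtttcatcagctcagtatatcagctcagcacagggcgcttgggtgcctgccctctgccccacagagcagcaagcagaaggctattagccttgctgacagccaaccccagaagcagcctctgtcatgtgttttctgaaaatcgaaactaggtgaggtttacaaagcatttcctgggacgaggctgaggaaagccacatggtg

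On these 300 bases the Ifit3 promoter held the ISRE letters in 3 places, all as their reverse complement, and Ifitm3 and Bst2 each held them in 2 places with 1 GAS match. That a promoter such as that of Lgals3bp held neither says only that these letters were not in this window.

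Depth was low and uneven. Totals ran between 32842 and 302003 counts per library for astrocytes, between 10039 and 122002 for microglia and between 15654 and 112676 for monocytes. The deposited signal is a normalized value per gene in which 1 count was worth 4.22 to 76.0, and in the shallowest library of each cell type a count of 0 allowed at most 3 counts, which is a signal of 82.7 (astrocytes), 228 (microglia) or 152 (monocytes). Xbp1 did not separate the groups: its mean signal in astrocytes was 49.5 ± 22.3 in shXbp1 and 49.8 ± 30.3 in shScrmbl libraries (SD, n = 4 each; limma log2 difference 0.12, adjusted p = 0.966), so every comparison here is between libraries by their labels. Markers of the sorted type were present in its own table, with 14 of 15 astrocyte markers listed in astrocytes, 16 of 16 microglia markers in microglia and 14 of 16 monocyte and macrophage markers in monocytes. Other types were present too. The summed signal of 8 monocyte and macrophage markers in astrocytes lay between 409 and 1521 in shXbp1 libraries and between 461 and 8442 in shScrmbl libraries, with the highest in shScrmbl replicate 2, the deepest library. The 14 such markers in microglia summed to between 3648 and 17110 in shXbp1 and between 9603 and 49756 in shScrmbl libraries. Ependyma and choroid plexus markers summed to between 148087 and 273502 in shXbp1 and between 212216 and 307681 in shScrmbl astrocyte libraries, of a total signal near 1000000. No listed marker of these 3 lists was at 0 in every library of either virus there. Libraries of a cell type were counted as separate mice, and whether a mouse gave more than 1 cell type is not given in the sources used here.

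Interferon response genes took the largest share of counts in monocytes and the smallest in astrocytes. They held 1.09% and 1.43% of all counts in monocyte shXbp1 libraries and 1.28% and 0.779% in shScrmbl libraries. In microglia they held 0.618%, 0.736% and 0.582% in shXbp1 libraries, against 0.665%, 0.904%, 0.897% and 0.806% in shScrmbl libraries. In astrocytes they held 0.340%, 0.496%, 0.337% and 0.449% in shXbp1 libraries, against 0.407%, 0.537%, 0.432% and 0.475% in shScrmbl libraries. The groups overlapped in each cell type, with 2 of 3 shXbp1 microglia libraries under every shScrmbl one. These are shares of the genes each table lists, and each table lists its own number of these genes. In RNA from pooled cells, fewer cells of a type and less RNA per cell cannot be told apart.

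**Figure D1:**
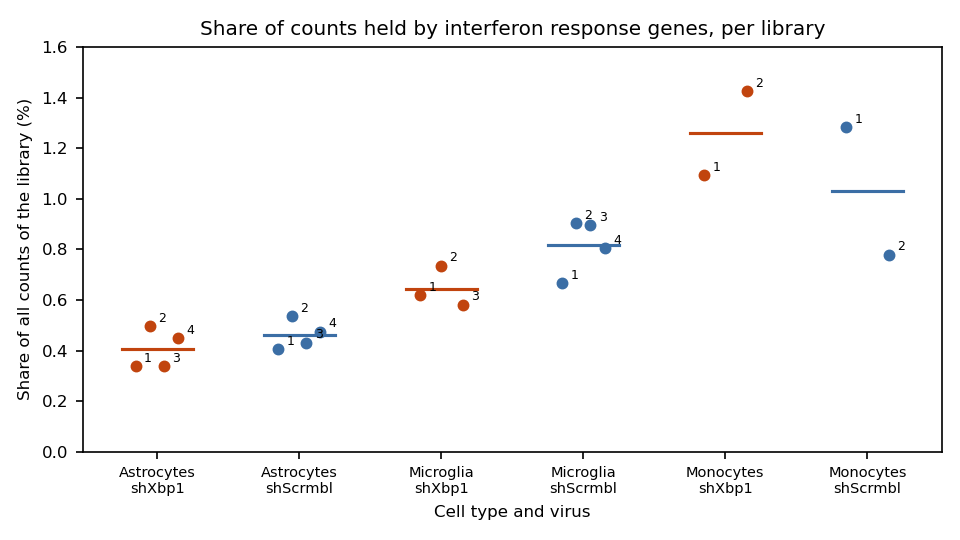
Share of all counts (percent, linear axis from 0) held by the listed interferon response genes in each of 19 libraries, by cell type and virus; points are libraries marked with their replicate number and bars are group means. All 4 monocyte libraries but shScrmbl replicate 2 lie above every microglia library, and all astrocyte libraries lie below every microglia library.

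By level, 19 of the 37 genes in all tables had their highest mean signal in monocytes, 16 in microglia and 2 in astrocytes. The mean was higher in monocytes than in astrocytes for 37 of 41 genes in both tables (90.2%), against 57.1% of all genes compared. It was higher in monocytes than in microglia for 24 of 43 (55.8%), against 45.1% of all genes compared. The tables were normalized separately, so levels set across them are a description. Counts come from 3′ ends and were not divided by length. Of 41 genes listed in both monocytes and astrocytes, 10 lay higher in every monocyte library than in any astrocyte library (among them AW112010, Bst2, Ifi27l2a, Ifi30, Ifit2, Ifitm2, Irf8, Samhd1 and Sp100), which is 24.4% of them, against 9.39% of all 3355 genes in both tables. In microglia against astrocytes the same held for 1 of 38 (Irgm2), against 5.81% of 2909 genes, while the mean was higher in microglia for 36 of the 38 (94.7%), against 65.0% of genes. Between monocytes and microglia none of 43 genes had libraries that did not overlap, against 1.43% (higher in monocytes) and 2.32% (lower in monocytes) of 2718 genes. With shares this low, 0 of 43 does not set these genes apart from the table.

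Ifi27l1, which encodes a small interferon-induced membrane protein, ran the other way. Its signal in astrocytes was 904, 1598, 999 and 1939 in the shXbp1 and 1906, 1577, 1518 and 1489 in the shScrmbl libraries. In microglia it was 380.0, 0 and 335 with shXbp1 and 208, 328, 299 and 200.0 with shScrmbl, and in monocytes 0 and 188 in shXbp1, against 252 and 246 in shScrmbl libraries. Every astrocyte library lay above every microglia and monocyte library, and within each cell type both viruses gave values of the same order apart from the single shXbp1 libraries of microglia and monocytes at 0. Lower in every microglia or monocyte library than in any astrocyte library were 2.23% and 3.22% of all genes compared, with Ifi27l1 the single such gene of this set in both. Its relative Ifi27l2a had its highest mean in monocytes instead.

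**Figure D2:**
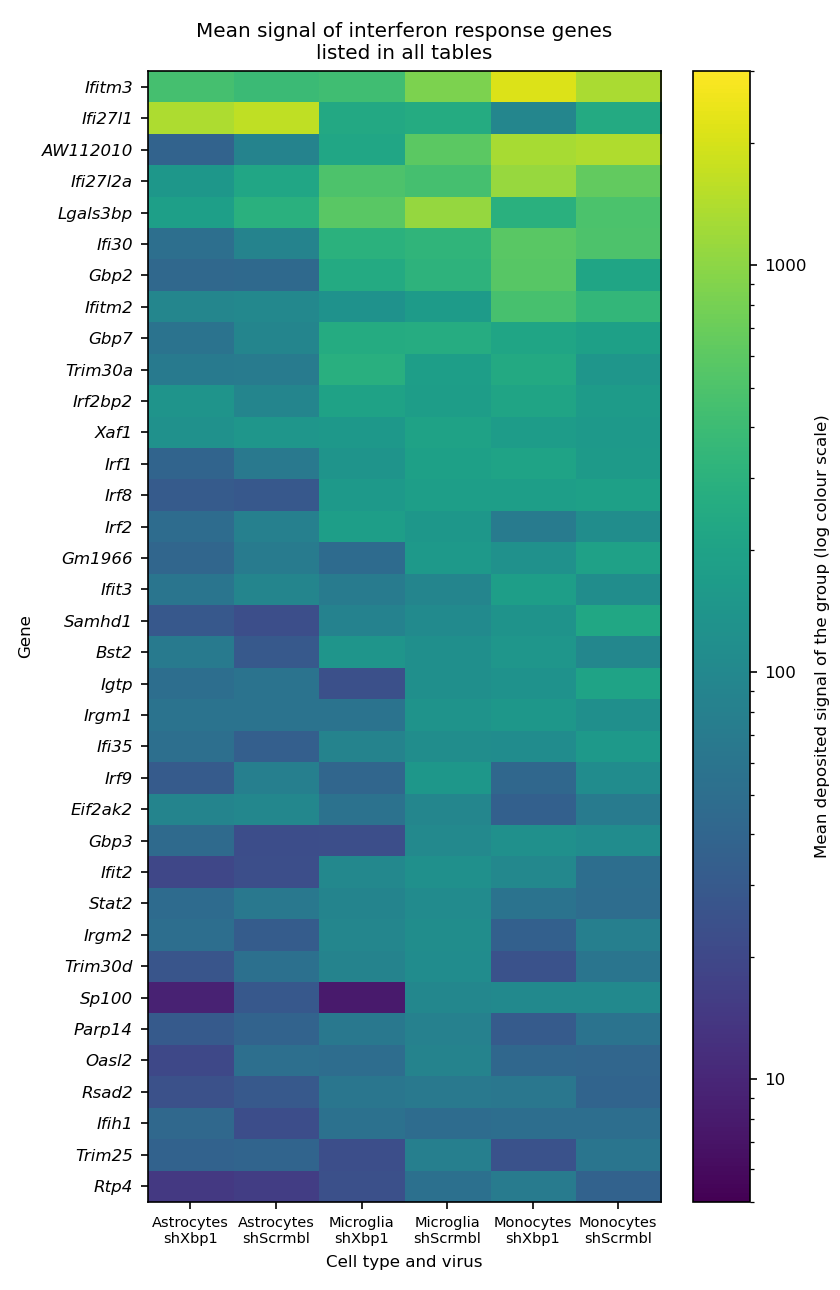
Mean deposited signal (log colour scale) of 36 interferon response genes listed in all tables, in rows by their mean over groups, for the 6 groups of cell type and virus in columns (shXbp1 left of shScrmbl). Ifi27l1 is bright in astrocytes alone, and Ifitm3, AW112010, Ifi27l2a and Lgals3bp are brightest in microglia and monocytes.

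**Figure D3:**
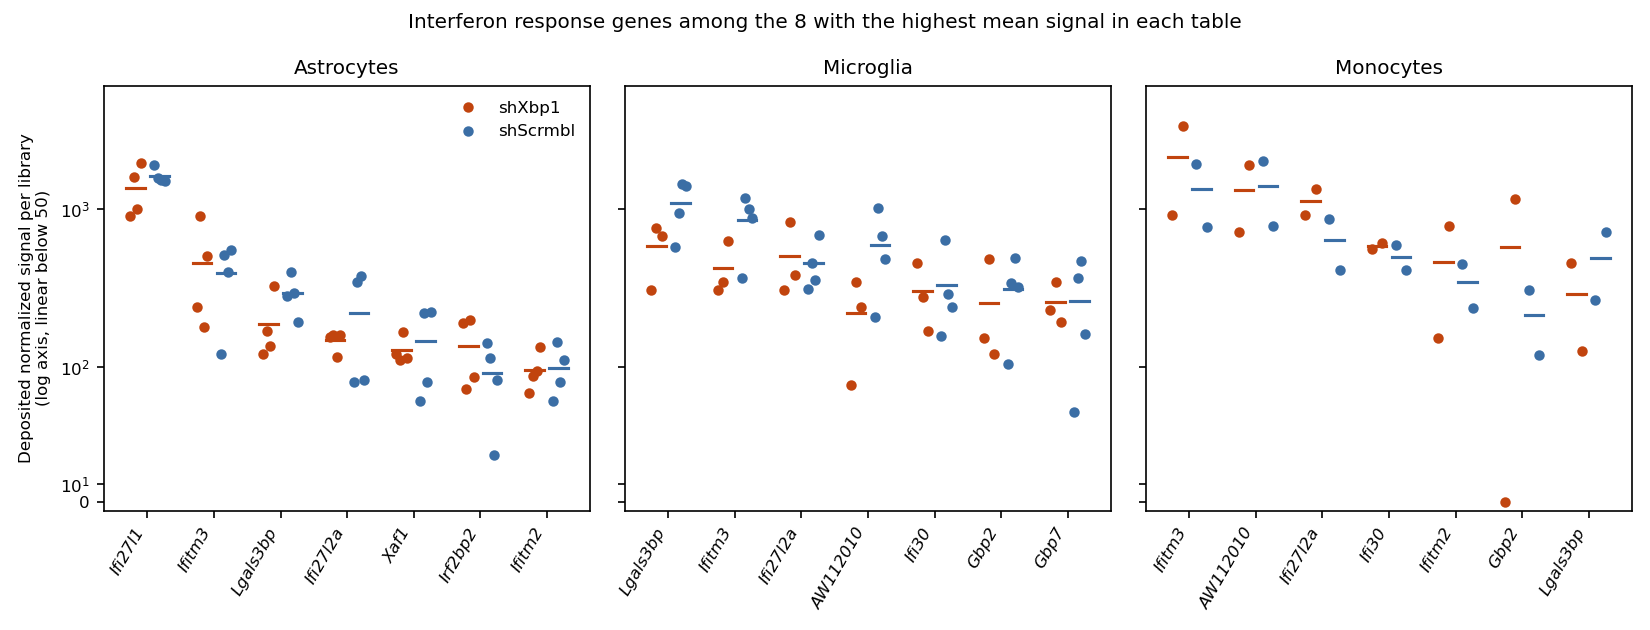
Deposited signal per library (log axis, linear below 50) of interferon response genes among the 8 with the highest mean signal in each table; points are libraries and bars group means, shXbp1 left of shScrmbl. Lgals3bp, Ifitm3 and AW112010 lie lower in shXbp1 than in shScrmbl microglia by their means, while Gbp2 in monocytes spans 0 to 1151 within shXbp1.

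In astrocytes no interferon response gene passed a test between viruses, and a shift toward lower values with shXbp1 rested on 1 library. The test across all 6366 genes (limma on log2(signal + 1), Benjamini-Hochberg adjusted p under 0.05) called 0.0% of genes and 0 of the 44. edgeR's quasi-likelihood test on the counts behind the signal called 0.0157% of genes and 0 of the 44, and DESeq2 0.0% and 0. At an unadjusted p under 0.05, limma had 1 of the 44 (4.68% of all genes), edgeR 7, all lower with shXbp1 (6.52% of all genes in either direction and 2.83% lower), and DESeq2 1 (2.06%). The median edgeR log2 difference (shXbp1 minus shScrmbl) was -0.60 over the 44 and 0.05 over all genes, with 34 of 44 below 0 (77.3%, against 46.5% of all genes). Without shScrmbl replicate 2 it was 0.12 over the 44 and 0.19 over all genes, with 18 of 44 below 0. On limma's scale of log2(signal + 1), on which genes at 0 in a library have wide differences, the median was 0.31 over the 44 and 0.42 over all genes.

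Among the transcription factors of the pathway, Stat2, a subunit of the type I complex, gave 0, 67.4, 52.0 and 66.4 in the shXbp1 and 80.2, 67.5, 53.3 and 55.2 in the shScrmbl libraries. Irf9, the DNA-binding subunit of that complex, gave 17.1, 48.1, 20.8 and 39.8 with shXbp1 and 20.1, 75.9, 79.9 and 138 with shScrmbl. Both groups overlapped in either gene.

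Irf3, a factor that cells hold ready and activate when they sense viral nucleic acid, had the smallest limma p of the 44. Its signal was 0, 19.2, 10.4 and 59.8 in shXbp1, against 100.3, 46.4, 53.3 and 138 in shScrmbl libraries. The shXbp1 libraries were low, 1 of them at 0, but the highest of them (59.8) lay above 2 of the shScrmbl values. The log2 difference was -2.83 ± 1.24 (SE) in limma and -1.45 in edgeR, from 14 and 23 counts (adjusted p = 0.824 and 0.714). Irf1, induced by interferon gamma, gave 68.2, 24.1, 31.2 and 33.2 in the shXbp1 and 40.1, 59.0, 53.3 and 110.3 in the shScrmbl libraries. Irf2, which counters Irf1 at shared promoters, gave 68.2, 43.3, 20.8 and 59.8 with shXbp1 and 100.3, 173, 53.3 and 0 with shScrmbl, and Irf8, a factor of myeloid cells, gave 34.1, 14.4, 31.2 and 46.5 in shXbp1, against 20.1, 97.0, 0 and 0 in shScrmbl libraries. In all of these the groups overlapped, and for Irf8 shScrmbl replicates 3 and 4 were at 0 while replicate 2 was the highest library.

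Of the GTPases, Gbp7, a guanylate-binding protein, gave 85.3, 72.2, 62.5 and 6.64 in the shXbp1 and 40.1, 219, 79.9 and 27.6 in the shScrmbl libraries. Gm1966, which the GENCODE M21 annotation lists as an unprocessed pseudogene, gave 68.2, 24.1, 41.6 and 33.2 with shXbp1 and 40.1, 164, 26.6 and 55.2 with shScrmbl. In both, shScrmbl replicate 2 was the highest of the 8 libraries, and edgeR's log2 differences of -1.15 and -1.32 had adjusted p-values of 0.714 and 0.699. Igtp, Irgm1 and Irgm2, regulators within the immunity-related GTPases, had edgeR differences of -0.18, -0.38 and 0.31. Igtp and Irgm2 overlap on the same strand of chromosome 11 (58199618 to 58207591). Of 50-base windows in the last 400 bases of each, 0% also occur in transcripts of another gene. Whether counts in the overlap were split between them is not given in the sources used here.

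Bst2, the membrane tether that holds budding virus particles, was the single gene of the 44 whose groups did not overlap. It gave 68.2, 52.9, 72.9 and 79.7 in shXbp1, against 20.1, 46.4, 26.6 and 27.6 in shScrmbl libraries. Every shXbp1 library lay above every shScrmbl library, with means of 68.4 ± 11.3 and 30.2 ± 11.3 (SD, n = 4 each) from 34 and 14 counts, which is 1 of 44 where 2.37% of all genes did so. The log2 difference was 1.20 ± 0.65 (SE) in limma and 0.89 in edgeR (adjusted p = 0.824 and 0.852). Of the other membrane proteins, Ifitm3, which blocks fusion of virus with endosomes, gave 239, 895, 177 and 505 in the shXbp1 and 120.4, 506, 399 and 552 in the shScrmbl libraries, and its relative Ifitm2 gave 68.2, 86.6, 93.7 and 133 with shXbp1 and 60.2, 143, 79.9 and 110.3 with shScrmbl. In both genes the groups overlapped.

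Among sensors and effectors, Oasl2, a relative of the oligoadenylate synthetases, gave 0, 52.9, 0 and 26.6 in shXbp1, against 40.1, 33.7, 107 and 27.6 in shScrmbl libraries. Samhd1, which depletes the nucleotides that viruses need for copying, gave 34.1, 33.7, 20.8 and 26.6 in the shXbp1 and 0, 92.8, 0 and 0 in the shScrmbl libraries, so its limma difference of 3.23 and its edgeR difference of -0.68 have opposite signs. The shScrmbl libraries held 22 counts of Samhd1, all in replicate 2. Xaf1, an antagonist of the inhibitor of apoptosis XIAP, gave 119, 111, 167 and 113 with shXbp1 and 60.2, 219, 79.9 and 221 with shScrmbl, and Lgals3bp, a secreted glycoprotein that binds galectins, gave 119, 168, 135 and 325 in shXbp1, against 281, 396, 293 and 193 in shScrmbl libraries. Both overlapped between viruses, Lgals3bp with 3 of 4 shXbp1 libraries under every shScrmbl value.

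The nuclear body gene Sp100 and the long noncoding RNA AW112010 had the largest edgeR differences below 0 together with Irf3. Sp100 gave 0, 9.62, 20.8 and 6.64 in the shXbp1 and 20.1, 67.5, 0 and 27.6 in the shScrmbl libraries. AW112010 gave 17.1, 72.2, 31.2 and 33.2 with shXbp1 and 0, 245, 26.6 and 82.7 with shScrmbl. Replicate 2 of shScrmbl was the highest library in both, and AW112010 was at 0 in shScrmbl replicate 1. edgeR's log2 difference was -1.99 for Sp100 and -1.45 for AW112010 (adjusted p = 0.683 for both), and limma's difference for AW112010 had the other sign, at 0.34. Irf2bpl, which matched by its letters, gave 68.2, 38.5, 31.2 and 26.6 in shXbp1, against 0, 25.3, 0 and 27.6 in shScrmbl libraries and Irf2bp2 gave 188, 72.2, 198 and 86.3 in the shXbp1 and 140.4, 114, 26.6 and 82.7 in the shScrmbl libraries, both with overlapping groups. Ifi27l2a gave 153, 159, 114 and 159 with shXbp1 and 80.2, 342, 373 and 82.7 with shScrmbl, with shScrmbl replicates 2 and 3 above and replicates 1 and 4 below every shXbp1 library.

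A further 19 genes with a row in the astrocyte table, among them Eif2ak2 (the kinase PKR, which halts translation), Ifit1, Ifit2 and Ifit3 (binders of foreign RNA), Ifih1 and Ddx58 (sensors of viral RNA), Rsad2, Usp18 and Iigp1, had edgeR differences from -1.30 (Iigp1) to 0.82 (Ifit1), with adjusted p-values of 0.762 or more. Markers of myeloid cells lay lower with shXbp1 in the same libraries: 7 of 8 monocyte and macrophage markers and 14 of 16 microglia markers had edgeR differences below 0 (medians -1.30 and -0.68). In limma 5 of 8 and 5 of 16 were below 0 (medians -0.49 and 0.10), so the microglia list turned between the tools. The summed microglia markers were highest in shScrmbl replicate 2 (5706, against 1725 to 2179 in the other shScrmbl and 1967 to 2642 in the shXbp1 libraries). Their part in the result was not tested.

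In microglia most interferon response genes lay lower with shXbp1, by more than the table as a whole, yet none passed a test with all libraries. The median log2 difference was -1.0 over the 45 and -0.39 over all 3066 genes in limma, and -0.49 over the 45 and -0.09 over all genes in edgeR. Both tools had 38 of 45 below 0 (84.4%), against 65.5% (limma) and 55.4% (edgeR) of all genes. limma called 0 of the 45 and 0.0% of all genes, edgeR 0 and 0.391%, and DESeq2 0 and 0.0%. At an unadjusted p under 0.05, limma had 8 of the 45, all lower (5.41% of all genes and 4.76% lower), edgeR 7, all lower (5.48% and 4.04%), and DESeq2 1 (2.02%). In 6 of the 45 every shXbp1 library lay below every shScrmbl library (13.3%, against 4.92% of all genes), and in 0 the reverse (2.32%). With each library left out in turn, edgeR's median over the 45 stayed between -0.76 (without shXbp1 replicate 3) and -0.48 (without shScrmbl replicate 3). That of limma stayed between -1.95 (without shScrmbl replicate 4) and -0.47 (without shXbp1 replicate 1).

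**Figure D4:**
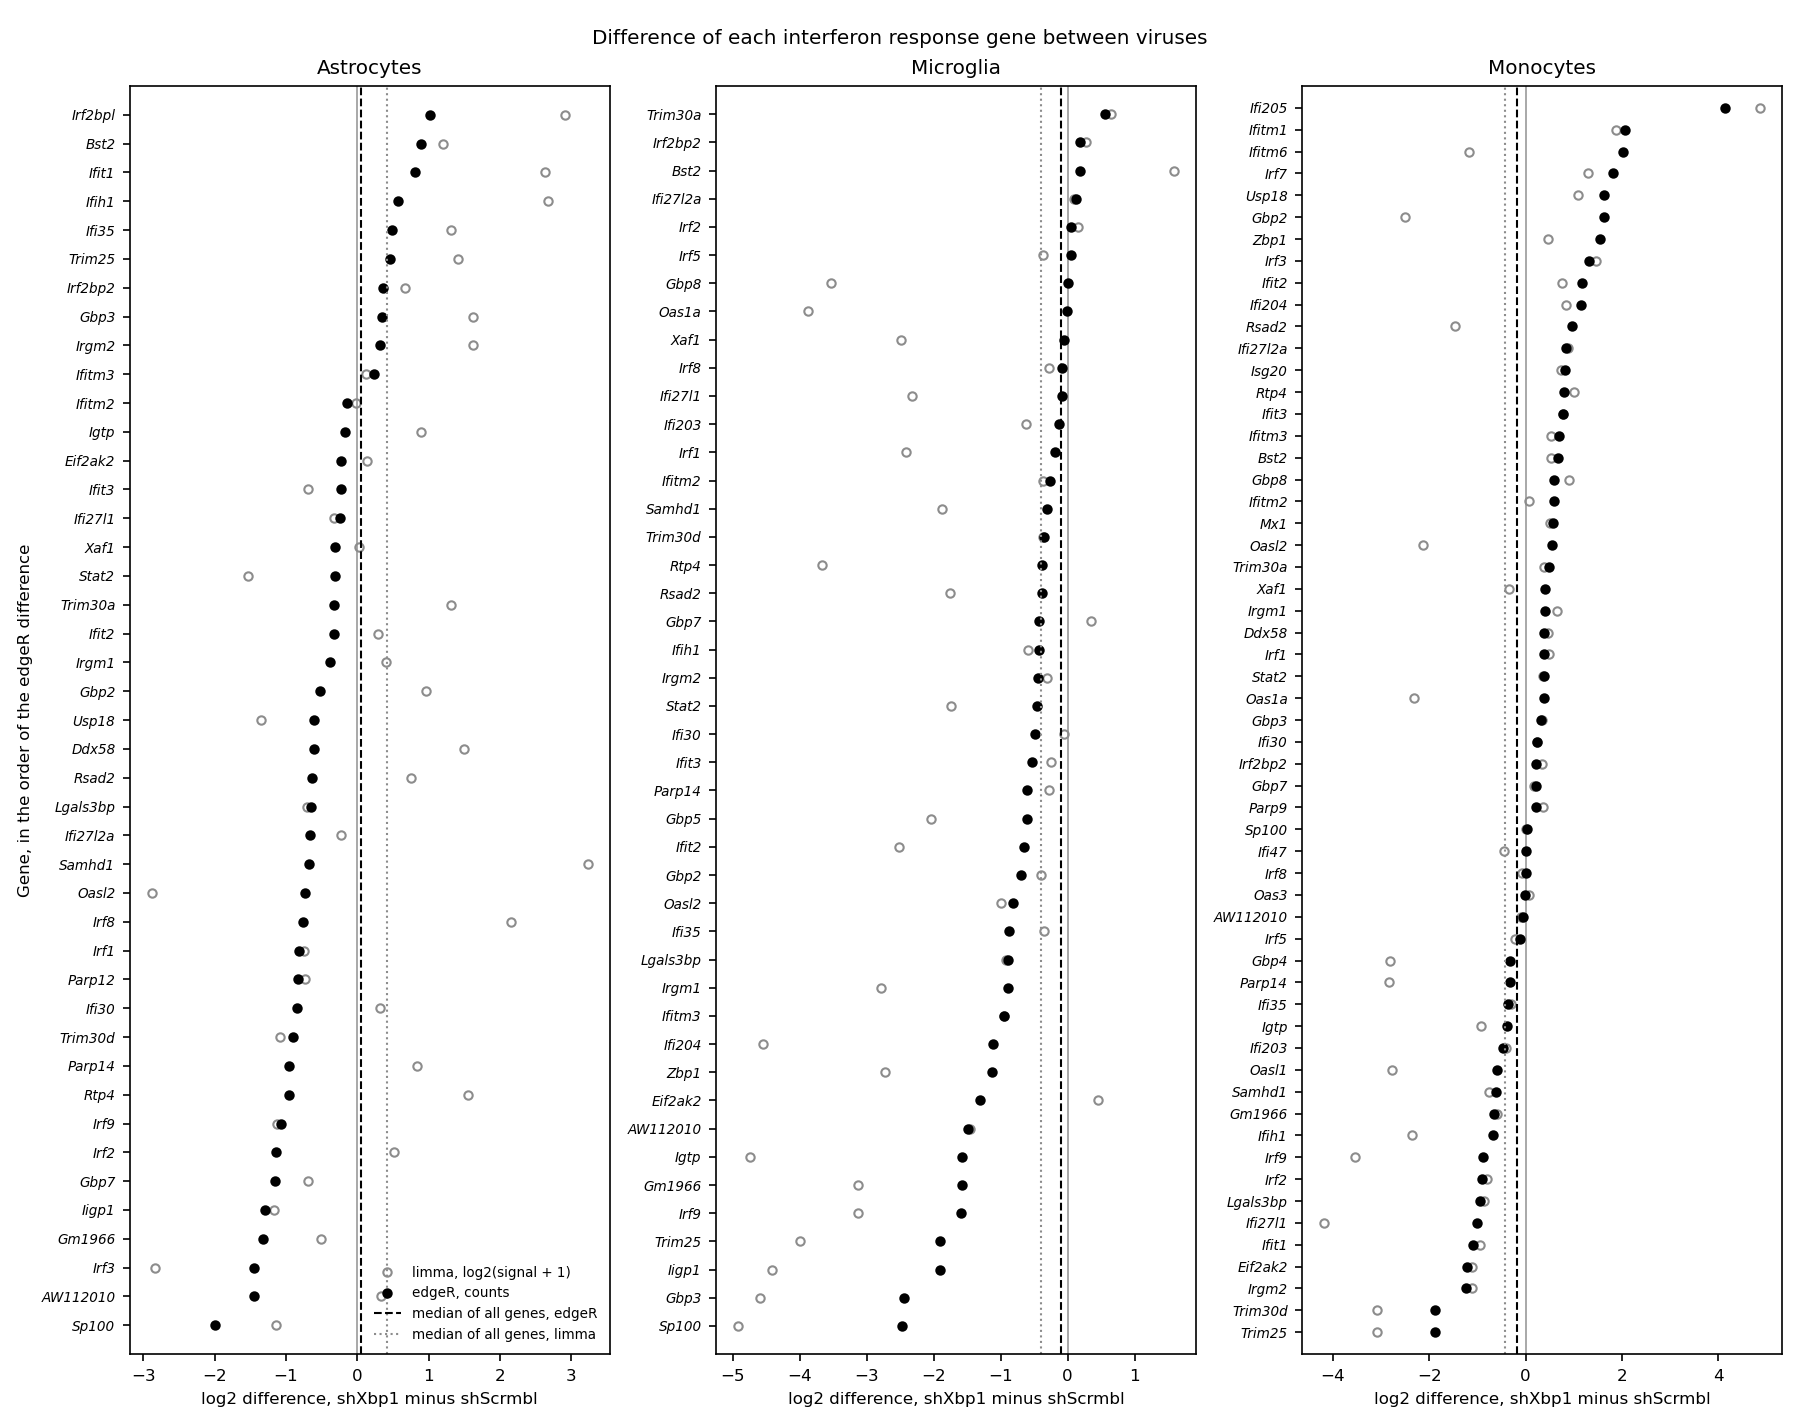
Log2 difference (shXbp1 minus shScrmbl) of tested interferon response genes in astrocytes (43), microglia (44) and monocytes (57), in the order of the edgeR value; filled points are edgeR on counts, open points limma on log2(signal + 1), and vertical lines the medians of all genes. In microglia 37 of these 44 lie left of 0 in each tool, no gene passed an adjusted p of 0.05 in these fits, and open points far from filled ones belong to genes with libraries at 0.

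AW112010 (chromosome 19, 11047612 to 11055808, minus strand) had the smallest p of these genes in microglia in both tools. Its signal was 76.0, 345 and 239 in shXbp1, against 208, 1009.5, 672 and 480.0 in shScrmbl libraries. The shXbp1 values were low, but 2 of the 3 lay above the lowest shScrmbl value, so the groups overlapped. The means were 220.1 ± 136 (n = 3) in shXbp1 and 592 ± 337 (SD, n = 4) in shScrmbl libraries, from 16 and 168 counts. The log2 difference was -1.46 ± 0.56 (SE) in limma (adjusted p = 0.804) and -1.50 in edgeR (adjusted p = 0.178). Without shScrmbl replicate 1, edgeR gave -1.72 with an adjusted p of 0.0402, the single call among the 45 when 1 library was left out.

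The other genes highest in microglia lay closer between viruses. Lgals3bp gave 304, 759 and 670.4 in the shXbp1 and 571, 946, 1428 and 1400.0 in the shScrmbl libraries, and Ifitm3 gave 304, 345 and 622 with shXbp1 and 363, 1174, 999 and 880.0 with shScrmbl. In both 1 or 2 shXbp1 libraries lay above the lowest shScrmbl library, which was replicate 1 for both genes. Their edgeR log2 differences were -0.89 and -0.94, with adjusted p-values of 0.74 and 0.715. Ifi27l2a, in contrast, gave 304, 828 and 383 in shXbp1, against 311, 454, 355 and 680.0 in shScrmbl libraries, with a limma difference of 0.09 ± 0.45 (SE). Ifi30, a lysosomal thiol reductase used in antigen processing, gave 456, 276 and 168 in the shXbp1 and 156, 631, 289 and 240.0 in the shScrmbl libraries, and Gbp2 gave 152, 483 and 119.7 with shXbp1 and 104, 341, 485 and 320.0 with shScrmbl, both with overlapping groups.

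The 6 genes whose microglia groups did not overlap were all of low counts. Gm1966 gave 0, 69.0 and 71.8 in shXbp1, against 104, 202, 196 and 120.0 in shScrmbl libraries, from 4 and 42 counts. Sp100 gave 0, 0 and 23.9 in the shXbp1 and 104, 151, 46.7 and 80.0 in the shScrmbl libraries, from 1 and 21 counts, and Gbp3 gave 0, 69.0 and 0 with shXbp1 and 156, 88.3, 84.0 and 80.0 with shScrmbl, also from 1 and 21. The pooled count ratio (shXbp1 over shScrmbl, scaled by depth) was 0.316 for Gm1966 (95% counting interval 0.0824 to 0.872) and 0.158 for Sp100 and Gbp3 (0.00383 to 0.984). Irf9 gave 76.0, 0 and 47.9 in shXbp1, against 259.5, 114, 140.0 and 80.0 in shScrmbl libraries. Irgm1 gave 76.0, 0 and 95.8 in the shXbp1 and 156, 114, 149 and 120.0 in the shScrmbl libraries, and Zbp1, a sensor of Z-form nucleic acid that can start necroptosis, gave 0, 69.0 and 71.8 with shXbp1 and 104, 164, 121 and 80.0 with shScrmbl. The lowest shScrmbl value exceeded the highest shXbp1 value in each, by as little as 76.0 with shXbp1 against 80.0 with shScrmbl for Irf9, a gap smaller than 1 count in any of these libraries.

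Of the remaining regulators, Irf1 gave 152, 0 and 263 in shXbp1, against 156, 164, 271 and 160.0 in shScrmbl libraries, Irf8 gave 152, 69.0 and 239 in the shXbp1 and 208, 252, 177 and 80.0 in the shScrmbl libraries, and Irf2 gave 304, 138 and 95.8 with shXbp1 and 208, 101, 168 and 120.0 with shScrmbl. Stat2 gave 152, 0 and 119.7 in shXbp1, against 51.9, 215, 131 and 40.0 in shScrmbl libraries, and Irf5, which Toll-like receptors activate, gave 0, 69.0 and 95.8 in the shXbp1 and 51.9, 101, 65.3 and 0 in the shScrmbl libraries. All 5 overlapped between viruses, with edgeR differences between -0.45 and 0.06. Igtp was at 0 in 2 of 3 shXbp1 libraries and gave 0, 0 and 71.8 with shXbp1 and 51.9, 114, 159 and 160.0 with shScrmbl, from 3 and 31 counts (limma unadjusted p = 0.0347, adjusted p = 0.804). Gbp7 gave 228, 345 and 192 in shXbp1, against 51.9, 366, 467 and 160.0 in shScrmbl libraries, with overlapping groups. The 7 genes not below 0 in edgeR were Trim30a, Irf2bp2, Bst2, Ifi27l2a, Irf2, Irf5 and Gbp8, all at differences of 0.55 or less.

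Depth and markers of other cell types differed between the same groups. The shXbp1 libraries held 10039, 13321 and 46586 counts, against 17892 to 122002 in shScrmbl libraries, so that values at 0 were more frequent with shXbp1: 27, 31 and 43 of the 45 genes had a count there, against 41 to 45. Monocyte and macrophage markers were lower with shXbp1 for 13 of 14 in edgeR and 12 of 14 in limma. Of the 14, 4 passed edgeR's test (Cybb, Hp, Lyz1 and Lyz2, with differences from -3.06 to -1.44 and adjusted p-values from 0.0136 to 0.0383) and 0 passed limma. The 4 listed markers of T, NK and B cells (Cd3d, Cd3g, Cd79b and Nkg7) summed to between 152 and 215 in shXbp1 libraries, against 240 to 571 in shScrmbl libraries, with 3 of 4 below 0 in edgeR (median -1.15) and Nkg7 at 0 in every shXbp1 library. The 6 neutrophil markers summed to between 414 and 1064 in shXbp1 libraries and between 830 and 887 in shScrmbl libraries. Of these, 5 were below 0 in edgeR (median -0.67) and 4 in limma (median -2.31). Microglia markers were above 0 for 13 of 16 in edgeR (median 0.28) and for 9 of 16 in limma (median 0.17). The part of these in the lower interferon response genes was not tested.

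In monocytes no interferon response gene passed limma, edgeR or DESeq2 in fits of all libraries without a replicate block. With such a block, limma called 1 (Ifi27l1). By their median the interferon response genes lay above the table as a whole in every fit. How far above, and on which side of 0, depended on single libraries of both viruses. Of the 59 listed genes, 58 passed the filter on low values, all but Parp10. The median log2 difference was 0.04 over the 58 and -0.42 over all 3775 genes in limma, and 0.28 and -0.17 in edgeR, with 37 of 58 above 0 in edgeR (63.8%, against 43.0% of all genes). Without shScrmbl replicate 2 the median over the 58 was -0.36 in limma and -0.05 in edgeR, against -0.46 and -0.18 over all genes. Of the 58, 69.0% were below 0 in limma (66.2% of all genes) and 56.9% in edgeR (56.9% of all genes). Without shXbp1 replicate 2 the median over 59 genes was -0.15 in both tools, against -0.33 (limma) and -0.38 (edgeR) over all genes. Of the 59, 52.5% (limma) and 54.2% (edgeR) were below 0, against 59.4% and 61.5% of all genes. limma called 0 of the 58, while it called 2.68% of all genes (101), of which 100 were lower (2.65% of all genes). edgeR called 0 and 0.0265%, and DESeq2 0 and 0.0%. At an unadjusted p under 0.05, limma had 1 (4.77% of all genes), edgeR 6, all higher (4.72% of all genes and 1.17% higher), and DESeq2 2 (0.556%). The groups did not overlap for 4 genes higher with shXbp1 and 8 lower (6.90% and 13.8%, against 9.85% and 25.0% of all genes).

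Depth and markers of cell types differed between the monocyte groups too. The shXbp1 libraries held 15654 and 56625 counts, against 74340 and 112676 in shScrmbl libraries. The 14 listed monocyte and macrophage markers summed to 9454 and 33247 in shXbp1 libraries, against 41865 and 41677 in shScrmbl libraries, with 9 of 14 below 0 in limma and in edgeR. The 7 neutrophil markers summed to 354 and 209 in shXbp1 libraries, against 810.5 and 674 in shScrmbl libraries, with 6 of 7 below 0 in edgeR and 5 in limma. The 10 markers of T, NK and B cells summed to 3893 and 4669 in shXbp1 libraries, against 4010.5 and 2495 in shScrmbl libraries, with 7 of 10 above 0 in edgeR and 6 in limma. None of these markers passed limma or edgeR, none was at 0 in every library of a virus, and their part in the results was not tested.

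Ifitm1 and Ifi205 were the genes with the most separation upward. Ifitm1, a surface member of its family, gave 202 and 523 in the shXbp1 and 139.7 and 54.6 in the shScrmbl libraries. Both shXbp1 libraries lay above both shScrmbl ones, and the log2 difference was 1.88 ± 0.76 (SE) in limma and 2.07 in edgeR (adjusted p = 0.562 and 0.923; 29 and 16 counts). Ifi205, a nucleic acid binding protein of the Ifi200 family, gave 50.6 and 167 with shXbp1 and 0 and 9.11 with shScrmbl, from 9 counts and 1 count. The pooled ratio was 24.2 with a 95% counting interval from 3.35 to 1059, and edgeR's adjusted p was 0.350. Of the last 400 bases of Ifi205, 87.5% of 50-base windows also occur in Ifi211, so its counts cannot be told from that neighbour's.

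Gbp2, Zbp1, Ifitm6 and Irf7 were high in shXbp1 replicate 2 alone. Gbp2 gave 0 and 1151 in shXbp1, against 307 and 118 in shScrmbl libraries. Zbp1 gave 50.6 and 628 in the shXbp1 and 182 and 91.1 in the shScrmbl libraries. Ifitm6 gave 0 and 209 with shXbp1 and 27.9 and 36.4 with shScrmbl, and Irf7, the factor that amplifies type I interferon, gave 50.6 and 188 in shXbp1, against 55.9 and 27.3 in shScrmbl libraries. In all 4 the other shXbp1 library, the shallowest with 15654 counts, lay below or between the shScrmbl values, so limma and edgeR gave Gbp2 (-2.50 and 1.63) and Ifitm6 (-1.18 and 2.02) opposite signs. Without shXbp1 replicate 1, edgeR called 61 genes, 5 of them of this set: Gbp2 (log2 difference 2.45), Ifi205 (4.52), Ifitm1 (2.46), Ifitm3 (1.29) and Zbp1 (2.21), with adjusted p-values from 8.8e-05 to 0.0109. Without shXbp1 replicate 2, edgeR called 29 genes and 0 of this set, with a smallest adjusted p of 0.250 among them. Without shXbp1 replicate 1, limma's median was 0.37 over this set and -0.11 over all genes, and 30.5% and 53.7% were below 0. Called higher in that fit were Gbp2 (2.59), Ifi205 (5.73), Ifitm1 (2.57), Ifitm6 (2.68) and Zbp1 (2.28). Called lower in it were Ifih1 (-5.69), Trim25 (-5.92) and Trim30d (-5.92). Without shXbp1 replicate 2, limma's median was -0.15 over this set and -0.33 over all genes, and Trim30a was called higher (1.51). Called lower in this fit were Gbp2 (-7.58), Gbp4 (-5.81), Ifi27l1 (-7.96), Ifitm6 (-5.04), Igtp (-1.94) and Irf9 (-6.74). So were Oas1a (-5.53), Oasl1 (-5.49), Oasl2 (-5.33), Parp14 (-5.84) and Rsad2 (-4.96). In both fits limma also called many genes outside this set, and its calls do not set these genes apart from the table. The lone shXbp1 library is assumed in these edgeR and limma fits to vary like the shScrmbl libraries.

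The genes highest in monocytes also varied between libraries of a virus. Ifitm3 gave 910.0 and 3329 in the shXbp1 and 1914 and 765 in the shScrmbl libraries, and AW112010 gave 708 and 1905 with shXbp1 and 2012 and 774 with shScrmbl. Ifitm2 gave 152 and 775 in shXbp1, against 447 and 237 in shScrmbl libraries. In these 3 genes shXbp1 replicate 2 and shScrmbl replicate 1 were the high libraries, and the groups overlapped. Ifi27l2a gave 910.0 and 1339.9 in the shXbp1 and 866 and 409.8 in the shScrmbl libraries, not overlapping, with a limma difference of 0.89 ± 0.63 (SE; adjusted p = 0.887). Ifi30 gave 556 and 607 with shXbp1 and 587 and 409.8 with shScrmbl, with overlapping groups. Lgals3bp gave 455 and 126 in shXbp1, against 266 and 710.2 in shScrmbl libraries, with overlapping groups and edgeR's largest difference below 0 among the 8 genes highest in the table (-0.95, adjusted p = 0.988).

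Most regulators in monocytes overlapped between viruses. Irf1 gave 202 and 209 in the shXbp1 and 238 and 91.1 in the shScrmbl libraries, Irf8 gave 152 and 209 with shXbp1 and 196 and 182 with shScrmbl, and Irf5 gave 50.6 and 83.7 in shXbp1, against 126 and 45.5 in shScrmbl libraries. Irf9 gave 0 and 83.7 in the shXbp1 and 154 and 72.8 in the shScrmbl libraries, Irf3 gave 50.6 and 83.7 with shXbp1 and 55.9 and 9.11 with shScrmbl, and Stat2 gave 50.6 and 62.8 in shXbp1, against 69.9 and 27.3 in shScrmbl libraries. Among these 6, Irf9 had a library at 0 and every pair of groups overlapped. Irf2 gave 101 and 41.9 in the shXbp1 and 112 and 118 in the shScrmbl libraries and did not overlap, with a limma difference of -0.81 ± 0.79 (SE; adjusted p = 0.887).

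The other genes with separate groups in monocytes were Isg20 (an RNA exonuclease, 152 and 209 with shXbp1 and 126 and 91.1 with shScrmbl), higher, and 7 lower ones. Samhd1 gave 101 and 167 in shXbp1, against 279 and 173 in shScrmbl libraries, and Gm1966 gave 152 and 105 in the shXbp1 and 224 and 164 in the shScrmbl libraries. Eif2ak2 gave 50.6 and 20.9 with shXbp1 and 69.9 and 72.8 with shScrmbl, and Ifit1 gave 50.6 and 20.9 in shXbp1, against 55.9 and 72.8 in shScrmbl libraries. Trim25, a ubiquitin ligase that activates the RNA sensor encoded by Ddx58, gave 50.6 and 0 in the shXbp1 and 55.9 and 63.7 in the shScrmbl libraries, with the same counts as Trim30d. These rest on 1 to 10 counts in the shXbp1 libraries, and their edgeR adjusted p-values were all 0.988. Ifi27l1 was also lower in both shXbp1 libraries (values above), with adjusted p = 0.887 in limma and 0.00911 in limma with a replicate block. The remaining genes had limma adjusted p-values of 0.887 or more, among them Mx1, Oas1a, Oas3, Oasl1, Oasl2, Parp9, Parp14, Gbp4 and Gbp8.

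**Figure D5:**
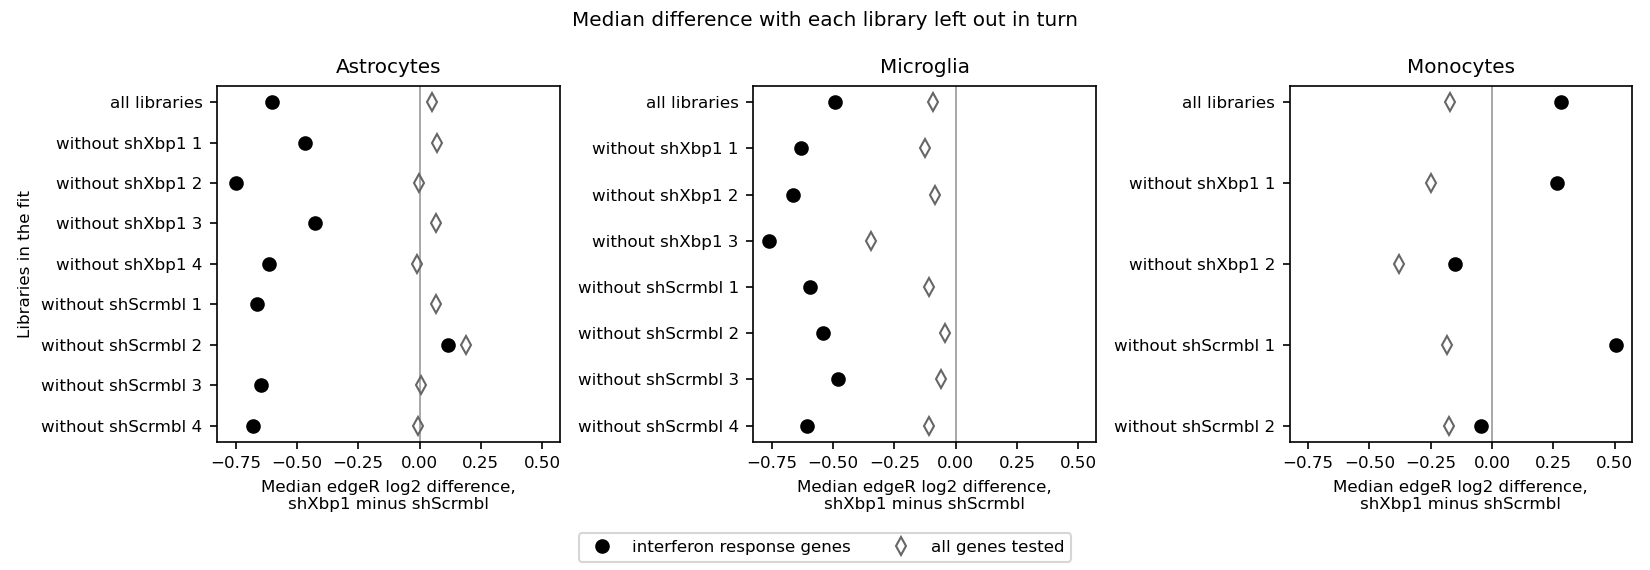
Median edgeR log2 difference (shXbp1 minus shScrmbl) of the interferon response genes (filled) and of all genes tested (open) with all libraries and with each library left out in turn. The microglia medians stay below 0 and below those of all genes in every fit, the astrocyte median is 0.12 without shScrmbl replicate 2 and -0.60 with all libraries, and the monocyte median ranges from -0.15 to 0.51.

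Other genes of the pathway, which the symbols did not cover, were also without a call in most places. Of 50 further interferon-induced genes (such as B2m, Ly6e, Psmb8 and Cxcl10), astrocytes listed 29, of which 4 were above and 25 below 0 in edgeR (median -0.67) and 11 above and 18 below in limma (median -0.21). Their summed signal in astrocytes was highest in shScrmbl replicate 2, at 7882. It was 1886 to 3254 in the other shScrmbl and 1586 to 3499 in the shXbp1 libraries. The part of shScrmbl replicate 2 in these differences was not tested. Microglia listed 30, with 9 above and 21 below 0 in edgeR (median -0.49) and 7 above and 23 below in limma (median -0.53). Monocytes listed 36, with 25 above and 11 below 0 in edgeR (median 0.34) and 18 on either side in limma (median 0.02). 0 of them passed limma or edgeR in any cell type, and 2 of the 50 (Ms4a4c and Plac8) are also in the list of monocyte markers. Of all genes, edgeR had 46.5% below 0 in astrocytes and 55.4% below 0 in microglia, and 43.0% above 0 in monocytes. In limma 31.8% (astrocytes), 65.5% (microglia) and 65.8% (monocytes) of all genes were below 0. Of 18 further ligands, receptors and signalling genes, no table listed a ligand. The 9 listed in microglia were the receptor chains Ifnar1, Ifnar2, Ifngr1, Ifngr2 and Il10rb, the kinase Jak1, the phosphatase gene Ptpn6, the inhibitor gene Pias1 and the transcription factor gene Stat3. In edgeR 7 of the 9 were above 0 (median 0.25) and in limma 4 (median -0.12), with 0 passing either test. Ifngr1, a chain of the interferon gamma receptor, averaged 459 ± 63.8 in shXbp1 (n = 3) and 342 ± 110 in shScrmbl microglia (SD, n = 4; edgeR difference 0.54, unadjusted p = 0.225, adjusted p = 0.996). In monocytes 8 of 12 such genes were below 0 in both tools (median -0.33 in edgeR and -0.42 in limma), and in astrocytes 4 of 10 in edgeR (median 0.10) and 1 of 10 in limma (median 0.53), again with 0 calls. Of 13 sensors upstream of interferon, edgeR had 2 above and 2 below 0 in astrocytes, and 1 above and 2 below in microglia and in monocytes. In limma 4 and 0, 1 and 2, and 0 and 3 were above and below 0 in the same order. Mb21d1, which encodes the DNA sensor cGAS, was at 0 in both shXbp1 monocyte libraries and at 55.9 and 45.5 in the shScrmbl libraries. limma called it (adjusted p = 0.00516) while edgeR did not (adjusted p = 0.923). A count of 0 in these shXbp1 libraries allows a signal of up to 152 and 62.8, above both shScrmbl values. With a pseudocount of 10 or 30, limma called 0 of all genes in monocytes.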

How the data were processed

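RNA of sorted cells was counted by 3′ digital gene expression, per the labels' protocols. The authors deposited 1 table of normalized signal per cell type. Per the submitters' processing notes, the tools were BWA 0.7.10 and limma 3.34.1 and the build mm10; the counter, annotation and scaling are not given in the sources used here. Deposited signal values above 0 were whole multiples of a library's step in 100% of cases, within 0.01 of a count, so the counts behind the deposited signal were recovered. The sources used here do not tell reads from unique molecules.

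Members are all genes whose symbol matched the pattern. The members, lists and tests were chosen with earlier results of these data known. Each cell type was fitted alone with limma 3.58.1 (trend, robust) on log2(signal + 1) in R 4.3.3, for genes that reached a signal of 1 in a number of libraries equal to the smaller group's size (6366, 3066 and 3775 genes), with Benjamini-Hochberg adjusted p under 0.05 over all genes. edgeR 4.0.16 (quasi-likelihood) and DESeq2 1.42.0 on recovered counts were alternatives. On the log2(signal + 1) scale the fold of a low gene depends on the pseudocount of 1. Values in every library are given for members called in any fit with all libraries, the 8 highest per table, those with the smallest p, those whose groups do not overlap, and Stat2 and the Irf factors; others are given by ranges. The own values of 1 of these genes, and 1 marker list, are not reported here, although that gene is counted in totals, shares and medians. Genes outside that rule that were called without 1 library are given with their value from that fit. Intervals of pooled ratios are exact binomial intervals at 95% and, like limits for a count of 0, cover counting error only. The tests were run on counts simulated with the means, depths and spread of each table. At an adjusted p under 0.05, edgeR recovered 0.498% to 2.99% of 2-fold and 12.4% to 48.8% of 4-fold changes. For limma these were 0.498% to 1.99% and 9.95% to 19.9%, so a gene without a call may still differ. The p-values set a difference against the spread between libraries. The replicate number was not a block in the fits reported, and fits with it, other pseudocounts, filters and scalings, and fits without each library were alternatives. Gene coordinates come from the GENCODE M21 annotation (GRCm38, which is mm10). Python 3.11.15, numpy, scipy, pandas and matplotlib served for the rest.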

Additional observations from a re-analysis of the deposited data

Results flagged for a closer look

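In groups of 4 libraries, 9 values of 136 groups (those of a gene and virus, and the summed share of counts) stood apart from the other 3 by a gap above Dixon's 95% critical value for the group's range, as chance gives in about 1 group in 20. In astrocytes with shXbp1, replicate 3 was the lowest library for Ifi27l2a (114) and the highest for Xaf1 (167). In astrocytes with shScrmbl, replicate 2 was the highest library for Irgm1 (152), Rtp4 (63.3) and Samhd1 (92.8), and replicate 3 for Oasl2 (107). In microglia with shScrmbl, replicate 1 was the highest library for Gbp3 (156) and replicate 3 for Irf1 (271), and replicate 4 was the lowest for Irf2bp2 (80.0). Astrocyte shScrmbl replicate 2 is the deepest library, and its part in the 3 values was not tested. Groups of 2 or 3 libraries were not examined in this way.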

How the results depend on the processing

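No interferon response gene passed a test with all libraries under any alternative pseudocount, filter, scaling or tool in astrocytes and microglia, and in monocytes 1 did (Ifi27l1, log2 difference -4.18) with a replicate block (adjusted p = 0.00911; 112 genes called in all) and with a crossed replicate block (114 genes, 1 of this set). Replicate numbers were not taken as pairs. In astrocytes and microglia, deviations of same-numbered libraries correlated between -0.09 and 0.07, and not every library correlated best with its own number. In monocytes, 2 libraries in a group deviate from their mean by mirrored amounts. The correlations there are all 0.17 or -0.17 for that reason and cannot decide whether numbers pair. In astrocytes the number of all genes called, 0 in limma, was 1 in edgeR and 3 in edgeR with a replicate block, and 0 to 8 with a library left out (8 and 7 in edgeR without shScrmbl replicate 1 and without shXbp1 replicate 2). In microglia, 0 in limma, it was 2 with equal total signal, 11 without trend and robust settings, 12 in edgeR, 24 in edgeR with a replicate block, and 0 to 23 with a library left out (0 or 1 of this set, both highest in edgeR without shScrmbl replicate 1). In monocytes, 101 in limma, it was 0 with a pseudocount of 10 or 30, with genes of a mean signal of at least 50, without trend and robust settings, in DESeq2 and in edgeR with a replicate block, 1 in edgeR, and 0 to 1163 with a library left out (0 to 12 of this set, both highest in limma without shXbp1 replicate 2, and 0 without either shScrmbl library). Directions that turned follow. In astrocytes the median over the 44 genes, 0.31, was -0.0044 with a pseudocount of 10, -0.017 with 30, -0.12 with genes of a mean of at least 50, -0.60 in edgeR, -0.47 in DESeq2 and -0.32 in edgeR with a replicate block, and lay between -0.16 and 0.83 (limma) and between -0.75 and 0.12 (edgeR) with a library left out, above 0 in edgeR without shScrmbl replicate 2 alone and below 0 in limma without shScrmbl replicate 1 alone. AW112010 in astrocytes, 0.34, was -0.28, -0.37, -1.45, -1.38 and -1.14 in the same order without the filter on the mean, and between -2.01 and 1.39 with a library left out. Samhd1 in astrocytes, 3.23, was -0.68 in edgeR, -0.27 in DESeq2 and -0.045 in edgeR with a replicate block, and between -0.98 and 4.87 with a library left out. In monocytes Gbp2, -2.50, was 1.63 in edgeR, 1.52 in DESeq2 and 0.95 in edgeR with a replicate block, and between -7.58 and 2.59 with a library left out. Ifitm6, -1.18, was 0.16 and 0.45 with pseudocounts of 10 and 30, 2.02 in edgeR, 1.90 in DESeq2 and 1.73 in edgeR with a replicate block, and between -5.04 and 2.68 with a library left out. Zbp1 lay between -1.34 and 2.28, and the median over the monocyte genes between -0.36 and 0.51. The causes were not tested. Depth limits what can be seen: most of these genes had fewer than 50 counts in a group, and 2 against 2 libraries give the monocyte comparison the least precision.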
